A study of Mus musculus with 56 samples.

Results

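Sensitized TFGS were compared with Naive TFGS, where TFGS are the CD8+ T cells that bind the OVA:Kb tetramer and so recognise a peptide of ovalbumin carried by a fetus or a graft. Members were chosen by their labels. They were the libraries labelled Sensitized, from mice that had rejected a skin graft, and those labelled Naive, from untreated mice. 13 of the 56 libraries of the series were used, 8 from 4 Sensitized mice and 5 from 3 Naive mice. 1 further Naive library held the same counts as a library of another group and was left out, so Naive replicate 1 rested on 1 library. Sensitized mice were female C57BL/6 mice grafted with 2W-OVA.BALB/c skin, which is allogeneic and carries the 2W-OVA antigen in all its cells, and their cells were taken at least a month after grafting. Naive mice were unmated female C57BL/6 mice without a graft. All were young adults. Cells of individual mice came from spleen and pooled lymph nodes and were enriched for T cells before the sort. Each library was amplified by SmartSeq2 from 200 sorted cells, and each value is a bulk value over them. A lower bulk level can come from fewer cells that use a gene or from less RNA in each cell, and these cannot be told apart. As the tetramer picks cells by the antigen receptor and not by history, the Sensitized sort can still hold cells that did not respond to the graft. The paper describes sorting the cells of every group by their commonest phenotypes. The labels Naive and Sensitized name no subset, so whether such a gate was used on them is not known here.

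A naive CD8+ T cell recirculates through lymph nodes, held quiescent by factors such as TCF1 and LEF1 and guided by CCR7. After priming it divides, and the cells that persist as memory keep chemokine receptors for inflamed tissue, stores of cytotoxic proteins, receptors for IL-15 and IL-18 and receptors shared with natural killer (NK) cells. T-bet, ZEB2 and ID2 are known for driving the effector side of this programme. An allogeneic skin graft is a strong priming stimulus, and the memory T cells it leaves are known for the fast rejection of a later graft.

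Libraries held 6636532 to 27760062 counts, and 11150 to 18012 genes had a count. A single 18S rRNA gene took 15.2% to 29.4% of the counts of a Naive library and 4.79% to 21.3% of a Sensitized one. The mitochondrial share was 2.12% to 4.42% in Naive and 2.26% to 4.77% in Sensitized libraries. Both libraries of a mouse correlated with r of 0.915 to 0.934 across genes, which are not independent replicates, except in Sensitized replicate 2, where r was 0.700. Library b of that mouse had the lowest depth, 6636532 counts, and the test was also run without it. The libraries of a mouse were summed, scaled by TMM factors and are given as CPM, the count relative to the size of the library. CPM are compared within a gene and not between genes. Markers of CD8 T cells were high in both groups. All 8 markers of CD8 T cells (*Cd3d*, *Cd3e*, *Cd3g*, *Cd8a*, *Cd8b1*, *Trac*, *Trbc1* and *Trbc2*) were tested, 0 were called, and their summed level was 7739 to 9595 CPM in Naive and 6580.0 to 9710.0 CPM in Sensitized mice.

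Sensitized TFGS differed from Naive TFGS in 98 of the 13333 genes tested, with 78 genes higher and 20 lower. A gene was called where it passed both thresholds of edgeR's quasi-likelihood test, a Benjamini-Hochberg adjusted p (FDR) below 0.1 and a log2 fold change of more than 0.9 in either direction. Called genes made up 0.735% of those tested, 0.585% for higher and 0.15% for lower. The values of the 7 mice did not overlap between the groups for all 98 called genes and for 1422 genes in all, 10.7% of those tested. With an unadjusted p under 0.05 instead, 630 genes (4.73%) were higher and 351 (2.63%) lower. The median log2 fold change over all genes tested was 0.04. 28 genes, 27 higher and *Lef1* as the only lower one, were called in each of the 7 fits that left out 1 mouse. Such fits called between 34 and 74 genes, 50, 46 and 40 when a Naive mouse was left out (replicates 1, 2 and 3) and 50, 74, 34 and 44 when a Sensitized mouse was (replicates 1 to 4). Without library b of Sensitized replicate 2 there were 69 calls, all of them among the 98. With the identical Naive library kept, 89 of the 98 genes were called, and 4 of the 28 genes above (*Gzmk*, *Zeb2*, *Bhlhe40* and *Klrc1*) were not. In 1 fit of all 7 groups of the series 30 genes were called, 0.153% of 19657 tested, 26 of them among the 98. That fit called 30 genes higher and 0 lower, so it made none of the 20 lower calls. Some of the 28 genes above were not called in it either. Among them were *Ly6c2* (FDR = 0.146), *Myo1f* (0.157), *Kcnj8* (0.16), *Cd82* (0.251), *Klrb1c* (0.255) and *Il10ra* (0.263). *Il18rap* (0.401) and *Tbx21*, *Plek* and *Cxcr6* (each 0.627) were others. Scaled by library size alone, in place of TMM, the split was 83 higher and 7 lower, and the median of all genes moved to 0.19. p-values measure the spread between these mice.

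**Figure D1:**
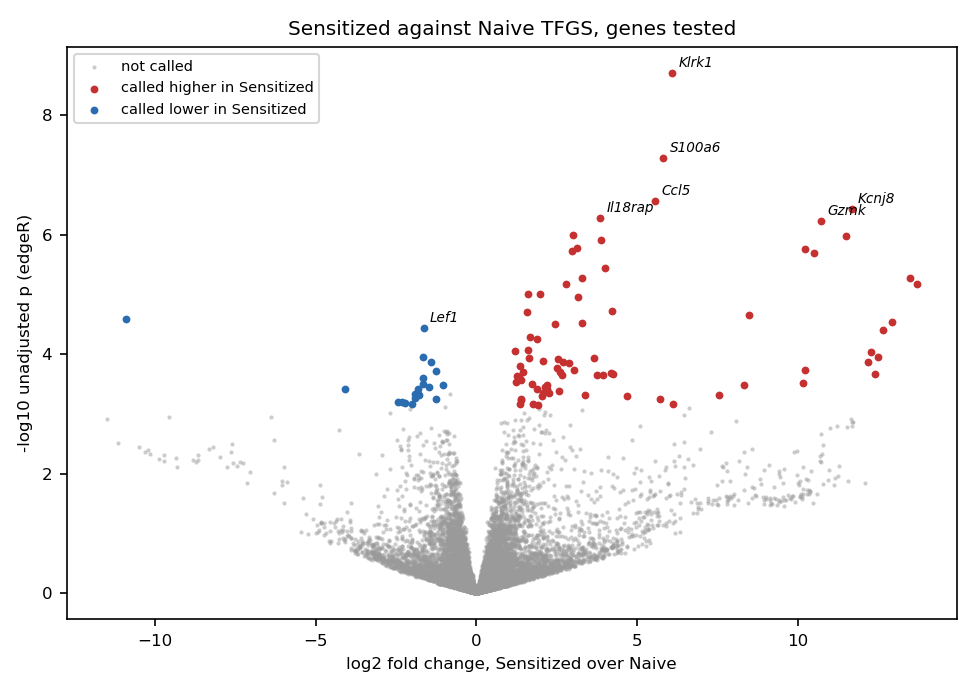
Log2 fold change of Sensitized over Naive against -log10 of the unadjusted p for the 13333 genes tested, 1 point a gene. The 78 red genes are higher and the 20 blue genes lower in Sensitized, with *Klrk1* and *Lef1* labelled among others, and the points far out on either side are mostly genes with few or no counts in the lower group, whose fitted position depends on the prior count.

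Receptors shared with NK cells gave the gene with the smallest p. *Klrk1* encodes NKG2D, an activating receptor for stress-induced ligands. Its level was 17.5, 15.9 and 14.8 CPM in the Naive mice and 894, 1039, 1305 and 1137 CPM in the Sensitized mice. It rose by a log2 fold change of 6.09 ± 0.25 (SE; FDR = 2.64e-05), with the lowest Sensitized mouse far above the highest Naive mouse. Below, a value with ± in parentheses after the levels is likewise a log2 fold change of Sensitized over Naive with its SE, and FDR is that of the same edgeR test. *Klrc1*, encoding the inhibitory receptor NKG2A, was at 1.18, 3.71 and 0.113 CPM in Naive and 432, 519, 856 and 582 CPM in Sensitized mice (8.47 ± 1.04, FDR = 0.0124). Its neighbour *Klrc2*, encoding the activating NKG2C, ran from 5.72, 4.43 and 1.92 CPM in Naive to 19.5, 47.8, 53.5 and 45.5 CPM in Sensitized mice (3.37 ± 0.63, FDR = 0.0773). Reads of these paralogs may be split between them, because only uniquely placed reads were counted. *Klrg1*, an inhibitory receptor of long-lived effector cells, was at 1.55, 0.0331 and 0 CPM in Naive and 90.2, 81.2, 137 and 82.3 CPM in Sensitized mice (7.55 ± 1.40, FDR = 0.0773). All 4 Sensitized mice lay above all 3 Naive mice for each of these receptors. *Slamf7*, a SLAM family receptor of cytotoxic cells, was at 17.6, 8.21 and 7.92 CPM against 163, 149.6, 224 and 187 CPM (4.01 ± 0.39, FDR = 0.00351).

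*Klrb1c*, which encodes NK1.1, was read with 2 counts over the 3 Naive mice and was at 52.1, 93.7, 65.1 and 124 CPM in the Sensitized mice. The ratio was 3227 (95% Poisson interval 893 to 26646), and the fit gave FDR = 0.00174. Such an interval leaves out the spread between mice. It takes each read as an independent count, which amplified reads are not, so it can be too narrow. NK1.1 antibody was among those of the exclusion gate of the sort. Of the 8 NK cell markers, *Ncr1* was at 0 CPM in 6 of the 7 mice and at 1.89 CPM in Sensitized replicate 2. *Klra8* and *Klra4* were at most 1.32 CPM in every mouse. *Klra9* was at 0, 6.09 and 0.0754 CPM in Naive and 5.02, 6.97, 3.2 and 0 CPM in Sensitized mice. The summed level of the 8 markers was 3.54 to 62.2 CPM in Naive and 147 to 308 CPM in Sensitized mice, most of it from *Klrb1c* and *Gzma*. *Fcer1g* and *Tyrobp*, signalling adaptors that NK cells hold at high levels, reached 12.7 CPM and 15.8 CPM in Sensitized mice and 11.3 CPM and 16.7 CPM in Naive mice. Over the whole list of NK cell receptors, 6 of 17 tested members were called higher and 0 lower. The shares over all genes tested were 0.585% and 0.15%. 11 members had an unadjusted p under 0.05 with a higher level, against 4.73% of all genes. The median log2 fold change of the list was 1.34, against 0.04 over all genes. Members past the unadjusted p alone included *Cd160* (1.30 ± 0.31, FDR = 0.194), *Hcst*, the adaptor of NKG2D (1.34 ± 0.32, FDR = 0.198), and *Klrd1*, the partner of NKG2A (0.98 ± 0.38, FDR = 0.526). *Klrk1*, *Klrb1c*, *Slamf7* and *Klrc1* were called in every fit without 1 mouse. With the identical Naive library kept, *Klrc1* and *Klrg1* were not called (FDR = 0.142 and 0.257). *Klrg1* and *Klrc2* were not called without library b of Sensitized replicate 2 (FDR = 0.13 and 0.127) and without Sensitized replicate 3 their FDR was 0.269 and 0.279.

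4 of the 6 called receptors lay in the NK gene complex, a cluster of lectin receptor genes on chromosome 6. On GRCm39, *Klrk1* spans chr6:129587286-129600827 on the minus strand, the lower end of *Klrc2* lies 37.2 kb and that of *Klrc1* 55.7 kb above its own, and *Klrb1c* lies 832 kb on the other side. Genes between or beside them were not all higher. *Klrc3*, between *Klrk1* and *Klrc2*, was at 3.73 ± 5.43 CPM (SD, n = 3) in Naive and 6.72 ± 4.04 CPM (SD, n = 4) in Sensitized mice (0.85 ± 1.41, FDR = 1.0). *Cd69*, an early activation gene in the same cluster, was at 1178, 1323 and 929 CPM in Naive and 848, 1222, 1063 and 367 CPM in Sensitized mice (-0.39 ± 0.36, FDR = 1.0). Most *Klra* genes, which encode Ly49 receptors, had too few counts to be tested.

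**Figure D2:**
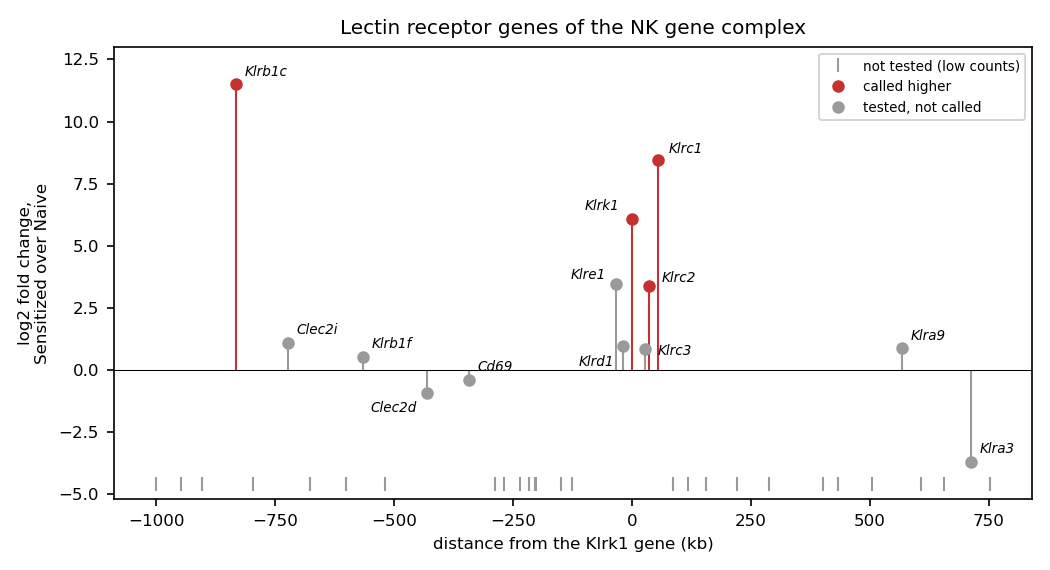
Log2 fold change of Sensitized over Naive for lectin receptor genes around *Klrk1* on chromosome 6, plotted by the distance of each gene from *Klrk1* in kb. Red stems are the 4 called genes, grey stems genes that were tested and not called, and ticks at the foot genes with too few counts, and the height of *Klrb1c* depends on the prior count.

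Cytotoxic genes were the next group. *Gzmk*, encoding granzyme K, had 6 counts over the 3 Naive mice and 122, 216, 94.2 and 94.9 CPM in the Sensitized mice (10.71 ± 0.84, FDR = 0.00134). *Gzmm*, encoding granzyme M, was at 15.5, 3.41 and 2.98 CPM in Naive and 98.9, 186, 147 and 97.01 CPM in Sensitized mice (4.18 ± 0.69, FDR = 0.0517). *Fasl*, the ligand of the death receptor FAS, was at 4.78, 0.0331 and 5.28 CPM and 214, 321, 291 and 104 CPM (6.12 ± 1.20, FDR = 0.0941). The groups lay apart in all 3 genes. The other 3 called genes had smaller fold changes. *Nkg7*, a membrane protein of cytotoxic granules, was at 1092, 838 and 944 CPM in Naive and 2759.6, 3956, 3261 and 2263 CPM in Sensitized mice (1.68 ± 0.23, FDR = 0.0222). *Cst7*, the granule protease inhibitor cystatin F, was at 179.6 ± 9.47 CPM (SD, n = 3) in Naive and 411 ± 29.1 CPM (SD, n = 4) in Sensitized mice (1.20 ± 0.18, FDR = 0.0348), and *Ctsw*, the protease cathepsin W, was at 407 ± 83.7 CPM (SD, n = 3) in Naive and 965 ± 154 CPM (SD, n = 4) in Sensitized mice (1.25 ± 0.22, FDR = 0.0613).

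Of 18 tested members of the cytotoxic list, 6 were called higher and 0 lower, against 0.585% and 0.15% of all genes tested. 10 had an unadjusted p under 0.05 with a higher level, against 4.73% of all genes, and the median log2 fold change was 1.22. *Gzmb*, encoding granzyme B, was at 0.204, 8.27 and 0.0377 CPM in Naive and 77.7, 71.9, 139 and 51.5 CPM in Sensitized mice, with 4.90 ± 1.49, FDR = 0.356. *Prf1*, encoding perforin, was at 119, 115 and 117 CPM and 294, 125, 297 and 199 CPM, with 0.97 ± 0.32, FDR = 0.409. *Gzma*, encoding granzyme A, was at 34.1, 0 and 3.47 CPM and 62.3, 157, 236 and 27.6 CPM, groups that overlapped. These 3 genes did not pass the test. *Gzmk* was the only member called in every fit without 1 mouse, and with the identical Naive library kept it had a log2 fold change of 5.34 and FDR = 0.297. *Nkg7* reached an FDR of 0.137 without Naive replicate 2, and *Fasl* was not called without library b of Sensitized replicate 2 (FDR = 0.131).

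Among chemokines and cytokines the chemokine *Ccl5*, which draws T cells and monocytes, was the only one of 18 tested members called. It was at 232, 119 and 125 CPM in the Naive mice and 6469, 10695, 7415 and 5194 CPM in the Sensitized mice (5.55 ± 0.40, FDR = 0.00123), and its gene overlaps a predicted gene on the other strand. 6 members had an unadjusted p under 0.05, all with a higher level, and the median log2 fold change was 0.57. Of all genes tested, 0.585% were called higher and 4.73% were higher at that unadjusted p. *Xcl1*, a chemokine for cross-presenting dendritic cells, was at 14.4, 11.5 and 4.9 CPM and 36.6, 31.7, 32.8 and 34.8 CPM, with 1.73 ± 0.51, FDR = 0.341. *Ifng* had 4.83 ± 1.17 with FDR = 0.218 in this fit, and was called in the fit of all 7 groups.

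Cytokine receptors changed in 4 of 25 tested members, all higher, against 0.585% of all genes tested. Both chains of the IL-18 receptor, whose genes lie 14.5 kb apart on chromosome 1, rose. *Il18rap* was at 15.6, 24.2 and 28.9 CPM in Naive and 323, 292, 306 and 406 CPM in Sensitized mice (3.86 ± 0.30, FDR = 0.00134). *Il18r1* was at 34.7, 43.01 and 21.3 CPM and 111, 154, 231 and 104 CPM (2.18 ± 0.39, FDR = 0.0694). *Il10ra*, the ligand-binding chain of the IL-10 receptor, was at 7.92, 7.31 and 15.3 CPM and 66.9, 100.2, 128 and 97.4 CPM (3.27 ± 0.42, FDR = 0.015), and *Il2rb*, the chain through which IL-15 signals, had 1.61 ± 0.24, FDR = 0.0344. 7 members were higher and 2 lower at an unadjusted p under 0.05, against 4.73% and 2.63% of all genes, and the median was 0.41. The 2 lower members were *Il6st*, the shared chain of the IL-6 receptor (-1.65 ± 0.50, FDR = 0.352), and *Ifngr2*, a chain of the receptor for interferon gamma (-2.22 ± 0.72, FDR = 0.402). *Il7r*, the receptor of the survival cytokine IL-7, was at 389.8, 1339.8 and 707 CPM in Naive and 735, 1200.3, 1477 and 996 CPM in Sensitized mice, and the groups overlapped. *Il18rap* and *Il10ra* held in every fit without 1 mouse, whereas *Il2rb* reached an FDR of 0.184 without Naive replicate 2 and *Il18r1* of 0.26 without Naive replicate 3.

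Homing receptors moved in both directions. *Cxcr3*, a receptor for interferon-induced chemokines, was at 52.7, 49.96 and 41.1 CPM in Naive and 369.8, 519.9, 322 and 304 CPM in Sensitized mice (2.98 ± 0.27, FDR = 0.00206). *Cxcr6*, a receptor of tissue-residing T cells, was at 164, 145 and 166 CPM and 437, 531, 518 and 415 CPM (1.59 ± 0.19, FDR = 0.0114). *Ccr2*, a receptor for inflammatory monocyte chemokines, was at 0.0817, 6.19 and 1.92 CPM and 101, 182, 148 and 140.4 CPM (5.70 ± 1.08, FDR = 0.0843). Against these, receptors of lymph node and gut entry fell. *Ccr7*, the receptor that guides T cells into lymph nodes, was at 1304, 1361 and 1092 CPM in Naive and 519, 120.4, 221 and 206 CPM in Sensitized mice (-2.23 ± 0.43, FDR = 0.0941). *Ccr9*, a receptor of the small intestine and thymus, was at 125, 129 and 111 CPM and 47.4, 39.1, 32.57 and 34.5 CPM (-1.66 ± 0.25, FDR = 0.0402). The genes of *Ccr9* and *Cxcr6* are 22.1 kb apart on chromosome 9, and they changed in opposite directions.

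Of 17 tested homing members, 3 were called higher and 2 lower, against 0.585% and 0.15% of all genes tested. At an unadjusted p under 0.05, 8 were higher and 3 lower, against 4.73% and 2.63% of all genes, and the median was 0.50. An uncalled member with a wide gap was *S1pr5*, a receptor for egress from tissue (8.41, 0 and 0.0754 CPM and 118, 54.2, 190.0 and 101 CPM, FDR = 0.38). *Cx3cr1*, a receptor of effector cells in blood, ranged from 35.2 to 399 CPM between Sensitized mice and from 0 to 17.02 CPM between Naive mice (FDR = 0.491). *Cxcr3* and *Cxcr6* held in every fit without 1 mouse. *Ccr7* and *Ccr2* were not called without library b of Sensitized replicate 2 (FDR = 0.128 and 0.13), and *Ccr9* reached an FDR of 0.19 without Naive replicate 2.

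Adhesion genes were called higher in 6 of 26 tested members, against 0.585% of all genes tested. *Itgb1*, the beta chain of the VLA integrins, was at 38.2, 56.8 and 38.9 CPM in Naive and 290.5, 361, 469.9 and 429 CPM in Sensitized mice (3.12 ± 0.28, FDR = 0.00206). *Itgb2*, the beta chain of LFA-1, was at 239 ± 35.3 CPM (SD, n = 3) in Naive and 619 ± 141 CPM (SD, n = 4) in Sensitized mice (1.37 ± 0.23, FDR = 0.0582). *Ly6c2*, encoding the memory marker Ly6C, was at 273, 304 and 386 CPM and 3224, 2641, 2567 and 1843 CPM (3.00 ± 0.25, FDR = 0.00174), and *Ly6a*, encoding Sca-1, was at 39.8, 8.83 and 28.9 CPM and 211, 498, 275 and 310.3 CPM (3.65 ± 0.56, FDR = 0.0402). Both lie on chromosome 15 among related Ly6 genes, between which reads may be shared. *St3gal6*, a sialyltransferase that builds selectin ligands, was at 16.05, 29.8 and 31.9 CPM and 122, 152, 114 and 70.3 CPM (2.14 ± 0.38, FDR = 0.0675). *Itgax*, encoding CD11c, had no count in the 3 Naive mice and was at 53.1, 83.9, 29.6 and 33.2 CPM in the Sensitized mice (FDR = 0.00508). That is at least 1268-fold higher when 3 counts over the group are taken as the floor. Such a bound holds for amplified reads and not for molecules.

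CD11c is best known from dendritic cells, and its antibody was in the exclusion gate. Of the other dendritic cell markers, *Flt3*, *Clec9a*, *H2-Aa* and *H2-Ab1* were under 1 CPM in every mouse. *Xcr1* was at 0, 0 and 0.189 CPM in Naive and 3.62, 12.3, 3.38 and 2.48 CPM in Sensitized mice. *Cst3* was at 90.6, 64.7 and 63 CPM in Naive and 84.7, 134.8, 95.7 and 65.7 CPM in Sensitized mice. *Siglech* was at 2.74 CPM in Sensitized replicate 2 and 0 CPM in the others. *Zbtb46* reached 3.82 CPM in a Sensitized mouse and 2.07 CPM in a Naive mouse, and *Cd74* 7.79 and 17.1 CPM. Summed over the 10 markers the level was 68.5 to 109 CPM in Naive and 105 to 236 CPM in Sensitized mice. Over the whole adhesion list 13 members were higher and 2 lower at an unadjusted p under 0.05, against 4.73% and 2.63% of all genes. The median of the list was 1.38. The activation marker *Cd44* was at 25.9, 55.1 and 70.9 CPM in Naive and 111, 167, 249 and 177 CPM in Sensitized mice, with 1.80 ± 0.41, FDR = 0.178. *Itga4*, the alpha chain of VLA-4, had 1.95 ± 0.43, FDR = 0.164, and was called in the fit of all 7 groups. That fit also called *Itgb1* and *Itgax*, and not *Ly6c2* (FDR = 0.146), *Itgb2* (0.213), *Ly6a* (0.359) or *St3gal6* (0.631). In the other direction, *Itgae*, encoding CD103, was at 76.8, 93.3 and 88.1 CPM and 8.33, 9.5, 30.9 and 30.7 CPM, with -2.12 ± 0.53, FDR = 0.233. *Ly6c2*, *Itgb1* and *Itgax* held in every fit without 1 mouse, and *Ly6a*, *Itgb2* and *St3gal6* reached an FDR of 0.149 without Naive replicate 3, 0.295 without Naive replicate 3 and 0.223 without Naive replicate 2.

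Calcium-binding and cytoskeletal genes of memory T cells formed a further group with 6 of 25 tested members called higher, against 0.585% of all genes. *S100a6* was at 12.2, 10.8 and 9.69 CPM in Naive and 489, 861, 665 and 429 CPM in Sensitized mice (5.81 ± 0.34, FDR = 0.000356). *Lgals1*, encoding galectin-1, was at 154, 91.5 and 92.7 CPM and 917, 1472, 1249 and 731 CPM (3.28 ± 0.34, FDR = 0.00449), and *Anxa2*, encoding annexin A2, was at 15.4, 27.8 and 7.39 CPM and 284, 420.5, 356 and 207 CPM (4.23 ± 0.51, FDR = 0.0114). Its binding partner *S100a10* was at 349.9 ± 33.1 CPM (SD, n = 3) in Naive and 878 ± 195 CPM (SD, n = 4) in Sensitized mice (1.33 ± 0.22, FDR = 0.0545). *Ahnak*, a large scaffold protein that binds this pair, was at 89.8, 104 and 125 CPM and 334, 483, 1024 and 614 CPM (2.53 ± 0.39, FDR = 0.0402). *Myo1f*, a class I myosin of white blood cells, was at 63.7 ± 6.2 CPM (SD, n = 3) in Naive and 249 ± 32.56 CPM (SD, n = 4) in Sensitized mice (1.97 ± 0.22, FDR = 0.00665). Across the list 15 members were higher and 1 lower at an unadjusted p under 0.05, against 4.73% and 2.63% of all genes. The median of the list was 1.33. *Anxa1* (3.28 ± 0.67, FDR = 0.112), *Crip1* (1.17 ± 0.28, FDR = 0.203) and *Vim* (0.94 ± 0.25, FDR = 0.271) were among those not called. The calls on *S100a10* and *Ahnak* were lost without some mice, with an FDR of up to 0.262 without Naive replicate 3 (*S100a10*) and up to 0.19 without Naive replicate 2 (*Ahnak*), and those on the other 4 genes were not.

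**Figure D3:**
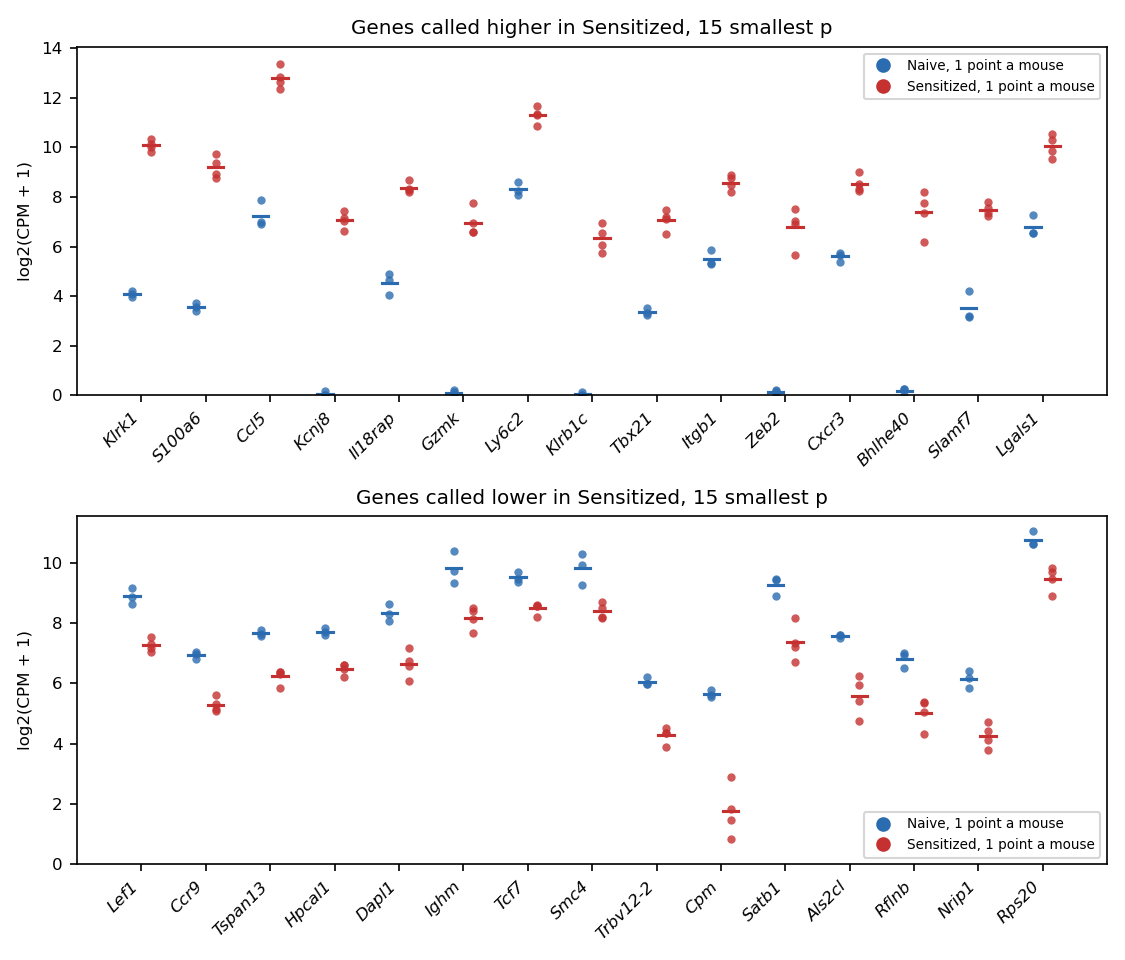
Log2(CPM + 1) of the 15 named genes with the smallest p in each direction, 1 point a mouse (3 Naive in blue, 4 Sensitized in red) and a bar at the mean. The groups do not overlap in any of the 30 genes, which the choice of genes fixes, and *Kcnj8*, *Gzmk*, *Klrb1c*, *Zeb2* and *Bhlhe40* sit at or near 0 in all Naive mice, while most lower genes stay well above 0 in Sensitized mice.

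Transcription factors of effector and memory cells were called higher in 6 of 26 tested members and lower in 0. Of all genes tested, 0.585% were called higher and 0.15% lower. *Tbx21*, encoding T-bet, was at 10.6, 8.47 and 8.86 CPM in Naive and 176, 90.4, 144 and 138 CPM in Sensitized mice (3.88 ± 0.33, FDR = 0.00181). *Zeb2*, a repressor that acts with T-bet, had 8 counts over the Naive mice and 129.7, 49.5, 184 and 119 CPM in the Sensitized mice (10.22 ± 0.91, FDR = 0.00206). *Bhlhe40*, a repressor of activated T cells, had 10 counts over the Naive mice and 162, 216, 295 and 71.99 CPM in the Sensitized mice (10.49 ± 0.96, FDR = 0.00206). *Zeb2* and *Bhlhe40* thus had few counts in Naive cells. *Id2*, which blocks E proteins, was at 188, 222 and 231 CPM and 782, 1842, 1021 and 1021 CPM (2.45 ± 0.31, FDR = 0.015). *Rora*, a nuclear receptor, was at 10.1, 26.8 and 17.5 CPM and 90.8, 76.9, 177 and 86.3 CPM (2.57 ± 0.47, FDR = 0.0724), and *Ikzf3*, encoding Aiolos, was at 63.6 ± 22.5 CPM (SD, n = 3) in Naive and 215 ± 65.2 CPM (SD, n = 4) in Sensitized mice (1.76 ± 0.34, FDR = 0.0941). 10 members were higher and 1, *Tox*, lower at an unadjusted p under 0.05, against 4.73% and 2.63% of all genes. The median of the list was 0.72. *Eomes*, the relative of T-bet, was at 0, 29.3 and 55.3 CPM in Naive and 45.02, 17.8, 45.5 and 99.7 CPM in Sensitized mice, with overlap. *Gata3* (outside the list) was also called, at 35.4 ± 3.2 CPM (SD, n = 3) in Naive and 117 ± 31.97 CPM (SD, n = 4) in Sensitized mice (1.72 ± 0.30, FDR = 0.0638). *Tbx21*, *Zeb2*, *Bhlhe40* and *Id2* held in every fit without 1 mouse. With the identical Naive library kept, *Bhlhe40* had a log2 fold change of 4.39 (FDR = 0.535) and *Zeb2* of 5.66 (FDR = 0.257), and neither was called. *Gata3* was called in 1 of the 7 fits without a mouse, and *Rora* and *Ikzf3* were not called without library b of Sensitized replicate 2 (FDR = 0.145 and 0.13).

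Genes of naive and quiescent T cells fell in 4 of 30 tested members and rose in 0, against 0.15% and 0.585% of all genes. *Lef1*, encoding a partner of TCF1, was at 394, 573 and 461 CPM in Naive and 183, 129, 157 and 143 CPM in Sensitized mice (-1.64 ± 0.21, FDR = 0.0169). *Tcf7*, encoding TCF1, was at 658, 708 and 829 CPM and 377, 384, 375 and 295 CPM (-1.03 ± 0.18, FDR = 0.0638). *Satb1*, a chromatin organiser of thymocytes and naive T cells, was at 478, 694 and 682 CPM and 162, 285, 103 and 147 CPM (-1.83 ± 0.34, FDR = 0.0773). *Dapl1* was at 264, 398 and 312 CPM and 104, 142, 66.95 and 94.8 CPM (-1.67 ± 0.28, FDR = 0.0557). All 4 genes kept a clear level in every Sensitized mouse. 13 members were lower and 0 higher at an unadjusted p under 0.05, against 2.63% and 4.73% of all genes, and the median was -1.12. Those not called included *Bach2*, a repressor of effector genes (-1.28 ± 0.33, FDR = 0.253), *Npc2* (-0.91 ± 0.21, FDR = 0.189) and *Foxp1*, a quiescence factor (-0.54 ± 0.24, FDR = 0.678). Only *Lef1* held in every fit without 1 mouse (highest FDR 0.0985 without Sensitized replicate 3). *Tcf7* reached an FDR of 0.293 without Naive replicate 3, *Satb1* of 0.277 without Sensitized replicate 4 and *Dapl1* of 0.231 without Naive replicate 2.

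Lower genes outside these lists had varied roles. The smallest p among the lower genes belonged to *A930002I21Rik*, a long non-coding RNA chosen after its values were seen, at 51.7, 16.7 and 19.9 CPM in Naive and read with 2 counts over the 4 Sensitized mice. Naive over Sensitized was a ratio of 2111 (95% Poisson interval 584 to 17434; FDR = 0.014), and without Naive replicate 1 its FDR was 0.121. *Tspan13*, a tetraspanin, was at 217, 188 and 196 CPM in Naive and 56.3, 78.96, 81.6 and 82.7 CPM in Sensitized mice (-1.42 ± 0.22, FDR = 0.041), and *Hpcal1*, a neuronal-type calcium sensor, was at 193, 209 and 226 CPM and 95.6, 72.7, 96.6 and 88.3 CPM (-1.25 ± 0.20, FDR = 0.0512). *Smc4*, a condensin subunit, was at 613, 1249 and 976 CPM and 291, 360.1, 285 and 414 CPM (-1.49 ± 0.26, FDR = 0.0678). *Cpm*, encoding carboxypeptidase M, ran from 45.6, 53.4 and 47.6 CPM in Naive to 1.79, 0.796, 6.43 and 2.59 CPM in Sensitized mice (-4.07 ± 0.73, FDR = 0.0696). *Nrip1*, a nuclear receptor corepressor, was at 71.9, 84.4 and 56.7 CPM and 12.9, 20.6, 16.3 and 25.5 CPM (-1.92 ± 0.36, FDR = 0.0837). *Als2cl* (-1.90 ± 0.35, FDR = 0.0773) and *Rflnb* (-1.78 ± 0.33, FDR = 0.0773) fell as well. A segment of the T cell receptor beta chain, *Trbv12-2*, was at 72.2, 61.8 and 61.9 CPM and 19.4, 21.7, 13.9 and 19.5 CPM (-1.81 ± 0.33, FDR = 0.0694), in cells that were all sorted by 1 tetramer. *Smc4*, *Cpm*, *Nrip1*, *Als2cl*, *Rflnb* and *Trbv12-2* were not called without library b of Sensitized replicate 2, where their FDR lay between 0.114 (*Nrip1*) and 0.403 (*Cpm*). *Tspan13* reached an FDR of 0.172 without Naive replicate 2 and *Hpcal1* of 0.247 without Naive replicate 3.

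*Ighm*, the constant chain of IgM, was at 1324, 834 and 645 CPM in Naive and 338, 278, 203 and 355 CPM in Sensitized mice (-1.67 ± 0.29, FDR = 0.0638, and an FDR of 0.211 without Sensitized replicate 3). It is a B cell gene, and B cells were among those gated out in the sort. Of the 10 B cell markers 3 (*Ighm*, *Cd79b* and *Cd79a*) had enough counts to be tested, and 1 was called. *Cd79b* was at 33.8, 10.9 and 23.7 CPM in Naive and 11.2, 4.48, 3.83 and 12.5 CPM in Sensitized mice. *Ighd* was at 0, 12.2 and 9.35 CPM in Naive and 0 CPM in all Sensitized mice. *Cd79a* went the other way, at 0, 0 and 0.264 CPM in Naive and 3.23, 7.015, 3.56 and 0 CPM in Sensitized mice. *Ms4a1* and *Pax5* were under 1 CPM in every mouse. The summed level of the list, nearly all *Ighm*, was 678 to 1358 CPM in Naive and 210.0 to 372 CPM in Sensitized mice. *Cd4* was under 1 CPM in every mouse and *Foxp3* at 0. Genes of other cells stood out in single mice. *Lyz2*, a lysozyme of myeloid cells, was at 324.6 CPM in Sensitized replicate 1 and at most 40.4 CPM in the other mice, and *S100a8*, a neutrophil gene, was at 67.5 CPM in Sensitized replicate 4 and 0 CPM in the others. Of the 10 myeloid markers 5 were tested and 0 called, with sums of 1.62 to 77.1 CPM in Naive and 12.04 to 351 CPM in Sensitized mice. Of the neutrophil markers 0 of 8 had enough counts to be tested, so that list could hold no call. For erythroid cells and platelets 2 of 10 were tested, for CD4 or regulatory T cells 3 of 5 and for gamma delta T cells 3 of 6, with 0 called. Sums of these lists, in this order, reached at most 107.8, 10.5, 40.6 and 24.9 CPM in any mouse. *Zbtb7b*, of the CD4 list, was at 0, 0 and 0.49 CPM in Naive and 4.69, 28.4, 4.015 and 6.17 CPM in Sensitized mice. *Trgc2*, of the gamma delta list, was at 3.92, 4.235 and 6.33 CPM in Naive and at most 0.0512 CPM in Sensitized mice. The part of these cells in the results was not tested.

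Ribosomal protein genes were lower as a group by small amounts. Of 81 tested genes 79 had a log2 fold change below 0, 54 were lower at an unadjusted p under 0.05, against 2.63% of all genes tested, and 0 were higher. Only *Rps20*, a protein of the small subunit, was called, at 2090.2, 1579.8 and 1581 CPM in Naive and 826, 902, 696 and 478 CPM in Sensitized mice (-1.27 ± 0.24, FDR = 0.0838), and its gene overlaps *Lyn* on the other strand. The median log2 fold change was -0.62. Summed over the 81 genes, the level was 134600.0, 114600.0 and 119800.0 CPM in the Naive mice and 89510.0, 97220.0, 77980.0 and 60010.0 CPM in the Sensitized mice, with no overlap. As a share of the counts other than those of the rRNA gene it was 15.8, 13.4 and 14.6% in Naive and 10.7, 10.3, 9.34 and 7.88% in Sensitized mice. That rRNA gene took 20.97, 20.1 and 21.5% of the counts in Naive and 13.3, 8.08, 18.7 and 10.4% in Sensitized mice, and its part in this difference was not tested. Under the other scalings the median was -0.60 (RLE) and -0.48 (library size alone). *Rps20* was not called without library b of Sensitized replicate 2 (FDR = 0.126) or with RLE factors.

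Inhibitory and costimulatory receptors were called higher in 2 of 27 tested members, against 0.585% of all genes tested. *Pdcd1*, encoding PD-1, was at 1.71, 6.65 and 2.19 CPM in Naive and 48.3, 42.5, 41.7 and 58.5 CPM in Sensitized mice (3.76 ± 0.63, FDR = 0.0519). *Entpd1*, encoding CD39, an enzyme that degrades extracellular ATP, had 2 counts over the Naive mice and was at 43.2, 48.1, 40.7 and 0.794 CPM in the Sensitized mice, a ratio of 1308 (95% Poisson interval 362 to 10799) (FDR = 0.0634). Sensitized replicate 4 stood far below the other 3 mice for *Entpd1*, where the gene was under 1 CPM. The median of the list was 0.68. It had 6 members higher and 0 lower at an unadjusted p under 0.05, against 4.73% and 2.63% of all genes. *Icos* (1.00 ± 0.31, FDR = 0.372) and *Nt5e*, encoding CD73 (1.38 ± 0.52, FDR = 0.51), were among the 6. Neither call held in every fit without 1 mouse, with an FDR of up to 0.238 without Naive replicate 3 for *Pdcd1* and 0.247 without Naive replicate 3 for *Entpd1*.

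Lists of division, metabolism and receptor signalling held 0 calls, against 0.735% of all genes tested. At that share a list of 18 to 27 members can hold 0 calls, so no result about these lists is read from it. Of all genes, 4.73% were higher and 2.63% lower at an unadjusted p under 0.05. In the cell cycle list 0 of 27 tested members were called, and 1 was higher and 0 lower at that unadjusted p, with a median of 0.01. *Ccnd3*, encoding cyclin D3, was at 275 ± 47 CPM (SD, n = 3) in Naive and 425 ± 68.8 CPM (SD, n = 4) in Sensitized mice (0.63 ± 0.21, FDR = 0.43), and *Tyms*, encoding thymidylate synthase, had 1.30 ± 0.60, FDR = 0.721. In the glycolysis list 0 of 18 were called, and 3 were higher and 1 lower at that unadjusted p, with a median of -0.15. *Pdk1*, which keeps pyruvate out of mitochondria, was at 93.2, 238 and 214 CPM in Naive and 78.1, 63.5, 79.9 and 72.3 CPM in Sensitized mice, with -1.31 ± 0.32, FDR = 0.226, and *Pfkp*, a phosphofructokinase, was at 201, 184 and 144 CPM and 243, 348, 345 and 287 CPM, with 0.79 ± 0.22, FDR = 0.304. Fatty acid oxidation had 0 of 18 called, 0 higher and 1 lower at that unadjusted p, and a median of 0.22. Its smallest p belonged to *Acaa2* (-0.79 ± 0.32, FDR = 0.581) and *Hadhb* (0.58 ± 0.32, FDR = 0.831). T cell receptor signalling had 0 of 26 called, 2 higher and 1 lower at that unadjusted p, and a median of 0.13. It was led by *Sh2d1a*, the adaptor SAP (0.93 ± 0.24, FDR = 0.266), and the kinase *Fyn* (1.03 ± 0.30, FDR = 0.34).

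Survival and death genes had 1 call among 21 tested members, against 0.735% of all genes, and a median of -0.04. The call was *Casp4*, an inflammatory caspase, at 0.817, 1.95 and 2.07 CPM in Naive and 17.3, 90.6, 42.8 and 15.4 CPM in Sensitized mice (4.68 ± 0.87, FDR = 0.0777). It was lost without library b of Sensitized replicate 2 (FDR = 0.125). *Pim1*, a survival kinase, was at 7.63, 33.7 and 17.4 CPM and 74.01, 97.6, 103 and 79.3 CPM, with 2.17 ± 0.50, FDR = 0.18. Interferon-stimulated genes had 1 call among 26, against 0.735% of all genes, and a median of 0.29. That call, *Ly6a*, is also counted in the adhesion list, and its FDR was 0.149 without Naive replicate 3. At an unadjusted p under 0.05, 7 members were higher and 1 lower, against 4.73% and 2.63% of all genes. *Xaf1* (1.20 ± 0.36, FDR = 0.341) and *Ifit3* (1.25 ± 0.42, FDR = 0.428) were not called.

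**Figure D4:**
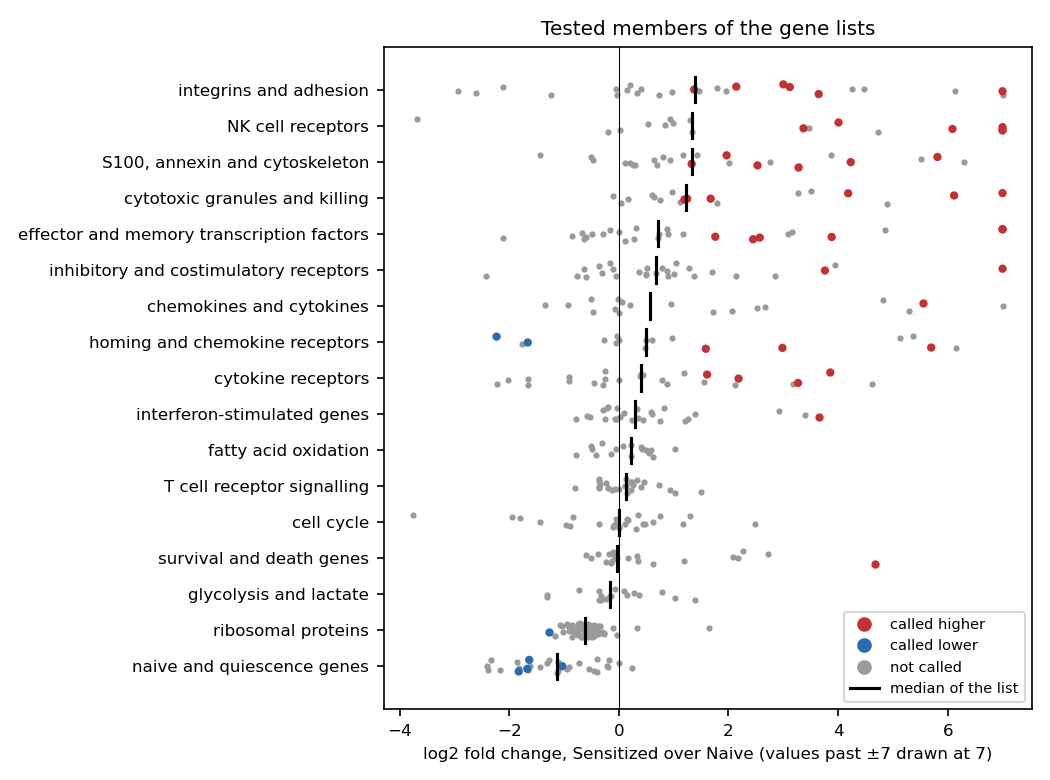
Log2 fold change of Sensitized over Naive for every tested member of 17 gene lists, 1 point a gene, with a black bar at the median of the list. Lists of integrins, NK cell receptors, S100 and cytotoxic genes have the highest medians (1.22 to 1.38), naive and quiescence genes the lowest (-1.12), and ribosomal protein genes form a narrow cloud below 0.

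Several called genes fall outside the usual memory lists. *Kcnj8*, encoding a pore subunit of ATP-sensitive potassium channels, had 3 counts over the Naive mice and was at 141, 131, 171 and 97.3 CPM in the Sensitized mice, a ratio of 3647 (95% Poisson interval 1248 to 17686) (FDR = 0.00124). *Ttc39c* had no count in Naive mice and 24.6, 50.8, 61.3 and 38.1 CPM in Sensitized mice, at least 1078-fold higher (FDR = 0.00449). *Cyp17a1*, a steroid-synthesis enzyme of gonad and adrenal, had no count in Naive mice and 19.01, 34.4, 23.5 and 4.43 CPM in Sensitized mice, at least 495-fold higher (FDR = 0.0518). Its neighbour *As3mt*, an arsenic methyltransferase 34.2 kb away on chromosome 19, was at 17.96, 15.5 and 11.1 CPM in Naive and 112, 132, 87.4 and 50.2 CPM in Sensitized mice (2.68 ± 0.42, FDR = 0.041). *Heatr9*, 3.6 kb from *Ccl5* on chromosome 11, had no count in Naive mice and 24.3, 13.4, 13.2 and 24.3 CPM in Sensitized mice, at least 551-fold higher (FDR = 0.0348), and without library b of Sensitized replicate 2 its FDR was 0.374. *Cpne7* (at least 589-fold) and *Lancl3* (at least 497-fold) were likewise without a count in Naive mice. With the identical Naive library kept, *Cpne7* had a log2 fold change of only 3.25 and FDR = 0.872. *Lancl3* had FDR = 0.403 without library b of Sensitized replicate 2. Of the 7 fits without a mouse, *Cyp17a1* was called in 1, *As3mt* and *Lancl3* in 2, *Heatr9* in 4 and *Cpne7* in 5. In all, 8 called genes had no count in Naive mice.

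More moderate changes included *Cd82*, a tetraspanin, at 115, 121 and 114 CPM in Naive and 367, 341, 361 and 344 CPM in Sensitized mice (1.60 ± 0.18, FDR = 0.00665). *Ctla2a*, a cathepsin inhibitor, was at 26.5, 26.4 and 17.3 CPM and 146, 209.8, 135 and 162 CPM (2.80 ± 0.30, FDR = 0.00508), and *Plek*, encoding pleckstrin, was at 11.3, 12.3 and 13.04 CPM and 108, 63.98, 128 and 131 CPM (3.14 ± 0.35, FDR = 0.0071). These 3 genes were called in every fit without 1 mouse. *Ezh2*, the histone methyltransferase of Polycomb complex PRC2, was at 21.3, 18.4 and 24.4 CPM and 69.1, 87.4, 124 and 81 CPM (2.08 ± 0.32, FDR = 0.041, and an FDR of 0.19 without Naive replicate 2). *Zyx*, the adhesion protein zyxin, had 1.63 ± 0.25, FDR = 0.0402, *Cdk6*, a kinase of the G1 phase, had 1.39 ± 0.26, FDR = 0.0838, and *F2r*, the thrombin receptor, had 2.04 ± 0.38, FDR = 0.0777. *Ctsd* (1.40 ± 0.27, FDR = 0.087) and *Ifitm10* (2.68 ± 0.45, FDR = 0.0519) lie 2.1 kb apart and are joined by an annotated read-through gene, so their reads may be mixed. Of the 7 fits without a mouse, *Cdk6* and *F2r* were called in 0, *Ctsd* and *Ifitm10* in 1 and *Zyx* in 3. *Cdk6*, *F2r* and *Ctsd* were also not called without library b of Sensitized replicate 2 (FDR = 0.126, 0.126 and 0.145), nor *Zyx* with the identical Naive library kept (FDR = 0.128). 59 of the 98 called genes overlap another annotated gene, most often a predicted one, and the library kit does not mark strand. 5 called genes are predicted genes, pseudogenes or without a name, and of these only *A930002I21Rik* is described.

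Promoter sequences of called genes were searched for the letters bound by memory T cell factors. Windows ran from 250 bases before to 50 bases after a gene's start (RefSeq, GRCm38.p6) and existed for 57 of the 78 genes called higher and 11 of the 20 called lower. TGANTCA, the AP-1 letters, which read the same on both strands, stood in a window of 15 of the 57 higher genes (26.3%), 0 of the 11 lower genes, 5.93% of the 8834 tested genes with a window and 8.97% of all 27025 genes with one. AGGTGTGA (T-box), on either strand, stood in 2 of 57 higher genes (3.51%), 1.01% of the tested genes and 1.48% of all genes. GGAAGT (ETS core) stood in 20 higher genes (35.1%), close to the 34.3% of the tested genes and against 26.6% of all. CTTTGAA (TCF/LEF) stood in 3 (5.26%), against 4.56% of the tested genes and 5.93% of all. TGTGGTTT (RUNX) stood in 0, against 1.57% of the tested genes and 2.11% of all, and the NF-kB motif in 2 (3.51%), against 0.487% and 0.466%. Among the 11 lower genes the ETS core stood in 3 and each of the other 5 motifs in 0. Matches are a description of these letters in these windows. The same letters can serve several factors, and no binding was measured.

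The 3 genes with the smallest p that hold the AP-1 letters, the first with the T-box letters and, for contrast, 2 lower genes, *Lef1* and *Ccr9*, which have the smallest p of the named lower genes with a window, are shown 5′ to 3′ along the gene's strand, with every match to any of the 6 motifs in capitals. They lie at chr6:129623815-129624114, minus strand (*Klrk1*), chr2:45110228-45110527, minus strand (*Zeb2*), chr1:171648950-171649249, minus strand (*Slamf7*), chr7:43436888-43437187, plus strand (*Nkg7*), chr3:131110047-131110346, plus strand (*Lef1*) and chr9:123766961-123767260, plus strand (*Ccr9*) on GRCm38.p6. The AP-1 letters stand once in *Klrk1* and *Slamf7* and at 2 places in *Zeb2*. Where a gene has several windows, the first listed with the AP-1 or T-box letters is shown for the higher genes and the first listed for the lower genes. The *Lef1* and *Ccr9* windows shown hold none of the 6 motifs, but another window of *Lef1* holds the ETS core.
Klrk1: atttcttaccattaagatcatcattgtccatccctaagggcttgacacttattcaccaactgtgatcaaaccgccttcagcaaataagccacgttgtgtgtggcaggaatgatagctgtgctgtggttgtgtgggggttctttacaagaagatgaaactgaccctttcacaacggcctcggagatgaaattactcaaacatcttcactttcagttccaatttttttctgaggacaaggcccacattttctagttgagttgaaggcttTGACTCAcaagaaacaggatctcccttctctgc
Zeb2: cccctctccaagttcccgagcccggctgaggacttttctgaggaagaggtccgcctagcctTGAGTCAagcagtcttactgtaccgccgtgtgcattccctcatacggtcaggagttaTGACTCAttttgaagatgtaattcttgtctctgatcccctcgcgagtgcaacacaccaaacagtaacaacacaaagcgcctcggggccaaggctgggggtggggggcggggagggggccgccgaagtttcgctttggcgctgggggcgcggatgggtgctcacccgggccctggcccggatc
Slamf7: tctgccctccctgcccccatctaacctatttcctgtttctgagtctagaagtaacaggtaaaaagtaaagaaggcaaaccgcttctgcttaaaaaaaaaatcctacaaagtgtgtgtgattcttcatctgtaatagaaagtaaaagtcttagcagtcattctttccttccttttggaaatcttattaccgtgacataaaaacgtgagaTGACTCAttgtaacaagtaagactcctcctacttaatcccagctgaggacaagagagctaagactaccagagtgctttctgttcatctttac
Nkg7: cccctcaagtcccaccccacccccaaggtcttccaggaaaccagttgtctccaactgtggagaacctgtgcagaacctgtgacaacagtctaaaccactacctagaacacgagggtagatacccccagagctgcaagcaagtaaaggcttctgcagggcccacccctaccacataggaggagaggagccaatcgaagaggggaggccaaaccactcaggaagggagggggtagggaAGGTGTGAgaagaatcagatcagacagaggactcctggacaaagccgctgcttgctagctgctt
Lef1: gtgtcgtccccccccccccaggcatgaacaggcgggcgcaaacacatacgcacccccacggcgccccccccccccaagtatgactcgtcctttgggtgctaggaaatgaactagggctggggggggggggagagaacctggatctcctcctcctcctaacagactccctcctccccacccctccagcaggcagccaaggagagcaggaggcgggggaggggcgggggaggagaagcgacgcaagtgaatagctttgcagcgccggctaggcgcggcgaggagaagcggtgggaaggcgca
Ccr9: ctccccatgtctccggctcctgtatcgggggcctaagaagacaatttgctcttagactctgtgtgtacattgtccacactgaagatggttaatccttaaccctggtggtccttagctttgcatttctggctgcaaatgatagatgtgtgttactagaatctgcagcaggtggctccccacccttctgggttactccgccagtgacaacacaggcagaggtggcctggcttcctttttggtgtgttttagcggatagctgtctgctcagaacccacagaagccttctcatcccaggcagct

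The called genes were followed in the other groups of the series, TFGS after pregnancy in mice that had been naive (N+P) or sensitized (S+P), sorted by PD1 and CD73. Values are on 1 TMM scale over 30 samples, which differs a little from that above, and no test was made. The labels give 31, but 1 PD1+CD73- library of S+P correlated with r of 0.999 with a library of another replicate of that group and was averaged with it. The S+P PD1- library identical to a Naive library was left out here too. The median log2(CPM + 1) of the 78 higher genes was 4.06 to 4.11 in Naive and 6.99 to 7.27 in Sensitized mice, positions that the choice of genes fixes. In N+P it was 4.6 to 5.42 for the PD1- subset and 5.73 to 6.5 for the PD1+CD73+ subset. The S+P medians over samples were 7.1 (PD1-), 6.68 (PD1+CD73+) and 7.05 (PD1+CD73-), with 1 PD1- sample at 2.06. That sample was also at 7.65 for the 20 lower genes, where Naive mice were at 7.66 to 7.72 and Sensitized mice at 5.95 to 6.45. It is 1 of 4 S+P libraries whose technical letter differs from the labels and which were placed by group alone. By its group median on this scale, a higher gene lay nearer to Sensitized than to Naive in 9 of 78 genes for N+P PD1-, 40 of 78 for N+P PD1+CD73+, 72 of 78 for S+P PD1-, 61 of 78 for S+P PD1+CD73+ and 67 of 78 for S+P PD1+CD73-. For the 20 lower genes these numbers were 1 of 20, 10 of 20, 19 of 20, 17 of 20 and 18 of 20.

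Single genes differed in this respect, as their lowest, median and highest CPM show. *Klrg1* stood at 0, 0 and 0.155 in N+P PD1+CD73+ and 0, 183 and 500.3 in S+P PD1- cells. *Klrk1* was at 35.1, 37.3 and 177 in N+P PD1+CD73+ and 349, 517 and 597 in S+P PD1+CD73+ cells. *Itgb1*, by contrast, was at 631, 1265 and 1350.0 in N+P PD1+CD73+ cells, above the 297, 399 and 472 of Sensitized cells, and *Bhlhe40* was at 154, 182 and 379 and 72.98, 191 and 296 in the same 2 groups. *Klrg1* and *Klrk1* thus lay below Sensitized cells in the PD1+CD73+ cells of N+P mice, *Itgb1* lay above them, and *Bhlhe40* overlapped them. Of the lower genes, *Tcf7* was at 410.0, 455 and 723 in S+P PD1+CD73+ cells and 299, 381 and 386 in Sensitized cells, while *Satb1* was at 11.8, 25.99 and 41.3 and 103, 157 and 287. *Cyp17a1* was at 0 in all 6 N+P samples and at up to 73.8 CPM in S+P PD1- samples.

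**Figure D5:**
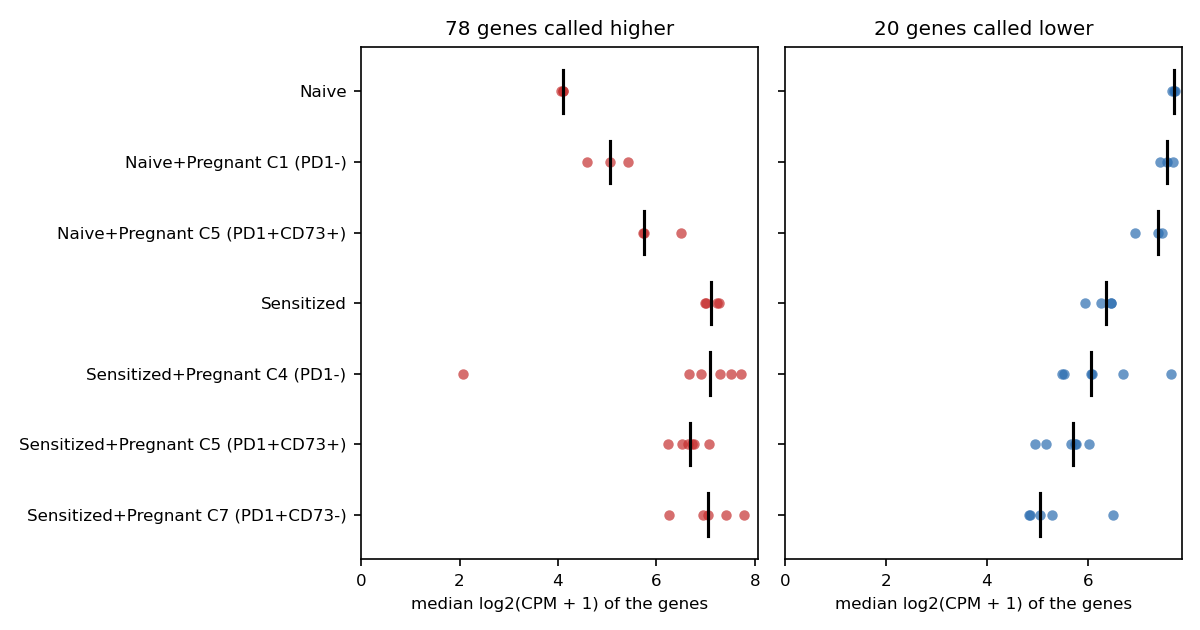
Median log2(CPM + 1) of the 78 genes called higher (left) and the 20 called lower (right) in each of the 30 samples used, by group, with a bar at the group median. N+P PD1- samples sit nearer to Naive and S+P samples nearer to Sensitized, except 1 S+P PD1- sample at 2.06 in the left panel and 7.65 in the right panel, near the Naive samples there, and the places of Naive and Sensitized are fixed by how the genes were chosen.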

How the data were processed

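RNA was measured in 13 libraries of 4 Sensitized and 3 Naive mice, amplified with SmartSeq2 without molecular identifiers. The deposited table holds whole read counts for each gene in each library, which the authors did not normalize. Per the paper's methods, adapters were removed with Cutadapt 3.4. The authors then mapped the pairs to GRCm39 by STAR 2.6.1b, dropped reads with more than 1 place and counted with featureCounts 2.0.1. The annotation release and strand option are not given in the sources used here. Reads of near-identical genes are thus lost or split.

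Groups came from the sample titles. A Naive library identical to a library of another group was left out, and the libraries of a mouse were summed. Genes were tested with edgeR 4.0.16 (filterByExpr with a minimum count of 10, TMM, robust quasi-likelihood fit of these 2 groups, two-sided) at an FDR under 0.1 and a log2 fold change beyond 0.9, and placed on GRCm39 with GENCODE M39. The fit was tested on simulated data. A floor of 3 counts over a group was used for lower bounds. The bounds and intervals (95%) leave out the spread between mice. They take each read as an independent count, which amplified reads are not, so intervals can be too narrow and bounds too high. For values per mouse, the 15 called genes of smallest p each way, the called members of each list (up to 6 in each direction) or, with none called, the 2 members of smallest p were taken, and genes outside these were chosen after their values were seen. Members, lists and motifs were chosen with earlier results of these data known. Protein sequences were not used here. Some members of the lists are not reported here. Alternatives were DESeq2 1.42.0, limma 3.58.1, a fit of all 7 groups, separate libraries, other scalings and filters, a replicate block, and leaving out each mouse. R 4.3.3 and Python 3.11.15 were used.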

Additional observations from a re-analysis of the deposited data

Results flagged for a closer look

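Genes taken by the rule for values per mouse, 66 in all, were screened for mice that stood apart. In 7 of them, 1 of the 4 Sensitized mice stood far from the other 3, with a gap to its nearest neighbour above Dixon's critical value for 4 samples. Genes chosen after their values were seen were not screened. Chance alone flags about 1 group in 20, and no pattern is read from these. *Acaa2* was at 134.5 CPM in Sensitized replicate 1 and at 64.3 to 71.6 CPM in the others. *Tspan13* was at 56.3 CPM in replicate 1 and at 79.0 to 82.7 CPM in the others. *Tyms* was at 103.1 CPM in replicate 2, the mouse with the library that stood apart, and at 23.0 to 33.8 CPM in the others. *Klrg1* was at 136.6 CPM in replicate 3 and at 81.2 to 90.2 CPM in the others, and *Rora* was at 177.4 CPM in that mouse and at 76.9 to 90.8 CPM in the others. *Tcf7* was at 295.0 CPM in replicate 4 and at 374.8 to 383.7 CPM in the others. *Entpd1* was at 0.794 CPM in replicate 4 and at 40.7 to 48.1 CPM in the others, so its call rests on 3 mice.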

How the results depend on the processing

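The direction of all 66 genes taken by the rule for values per mouse held under every alternative run, and the counts of calls did not. Genes outside that rule are not covered by this statement. Against 98 calls (78 higher, 20 lower), edgeR on all 7 groups made 30 (30, 0), DESeq2 on summed counts 504 (379, 125), limma-voom with sample weights 302 (184, 118), edgeR on separate libraries 198 (150, 48), DESeq2 on separate libraries 492 (391, 101), no filter 151 (110, 41), library size 90 (83, 7) and an FDR under 0.05 47 (43, 4). Separate libraries treat 2 libraries of a mouse as replicates. Without 1 mouse there were 34 to 74 calls, 30 to 59 higher and 2 to 15 lower. Without library b of Sensitized replicate 2, an alternative chosen after the data had been seen, there were 69 (60, 9). The cause of these differences was not tested. Same-numbered mice gave r of 0.0793, 0.0122 and 0.00677 between their deviations from their group, and differently numbered mice -0.0598 to 0.0669. With so few pairs, these values cannot decide whether the numbers pair the mice. The paper describes sorting in independent experiments, and the labels do not tell which mouse came from which. Whether mice of both groups shared a batch was not tested. Blocking on the replicate number (replicate block) made 2 calls (2, 0). Of the other alternatives, RLE factors, a mean of at least 10 CPM, the identical library kept and no minimum fold change kept all counts within 1.5 times. With the identical library kept there were 101 calls, 89 of them among the 98.

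All 98 genes were also called by DESeq2. Depth limits genes with few counts, such as most Ly49 and neutrophil genes, which could not be tested.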
